A study of Mus musculus with 6 samples.

Results

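The globins and 3 further genes of red blood cells were followed in embryonic mouse lungs, to compare the embryonic globins with the later ones in control and *Yap* mutant lungs. The members were 9 gene symbols: the embryonic globins *Hba-x*, *Hbb-bh1* and *Hbb-y*, the later globins *Hba-a1*, *Hba-a2* and *Hbb-b1*, and *Alas2*, *Slc4a1* and *Ahsp*. Loci were chosen by symbol from the authors' table of 24402 loci. A locus was found for 8 of the 9 symbols, and these 8 symbols fell on 8 loci, because *Hba-a1* and *Hba-a2* are named together at 2 loci and the other 6 symbols have 1 locus each. *Ahsp*, which encodes the chaperone of free alpha globin, was not analysed here. All 8 loci averaged at least 1 FPKM (fragments per kilobase of transcript, scaled to the library's mapped fragments) over the genotypes.

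RNA came from whole lungs of C57BL/6 mouse embryos at 12.5 *dpc*, in 3 libraries of wild type and 3 of Yap-flox/flox; Shh-Cre/+ embryos, called control and *Yap* mutant here. The controls were littermates of the mutants. Cre, a recombinase knocked into 1 copy of *Shh*, is active in epithelial cells, so that *Yap* is cut out there and stays in the mesenchyme. The mutants thus also lack that copy of *Shh*, which the controls keep. Mutant embryos are described in the study's methods as smaller than their littermates.

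Red blood cells are not made in the lung at this stage but reach it through the circulation. The first wave, primitive erythroid cells of the yolk sac, makes embryonic globins together with adult alpha globin, and definitive erythroid cells, made next in the fetal liver, carry the later globins. Alpha and beta globin genes lie in separate clusters, each with its embryonic genes ahead of its adult ones. A hemoglobin molecule pairs alpha-like with beta-like chains around heme. Red blood cells do not derive from the lung epithelium, where Cre acts.

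The authors' table gives 1 value per genotype, so neither the spread between libraries nor their depth is known, and no test across libraries could be made. Every value below is the authors' value for a genotype in FPKM, and no difference has an error. Ratios are *Yap* mutant over control, log2 ratios were taken after adding 0.1 FPKM to both values, and at least 1.5-fold means 1.5-fold on that scale. Of the 12716 loci that averaged at least 1 FPKM over the genotypes, 7.75% were at least 1.5-fold apart in either direction, 4.44% higher and 3.3% lower in *Yap* mutant lungs, and the quartiles of their log2 ratios were -0.11 and 0.11. *Yap1* itself had 76.1 FPKM in controls and 65.6 FPKM in mutants, a value that includes the mesenchyme and so does not check the deletion. Lung genes were present in both genotypes, with 61.9 and 35.9 FPKM for *Nkx2-1* of the lung epithelium and 54.3 and 59.2 FPKM for *Tbx4* of the lung mesenchyme. Both are examples picked outside the naming rule given below, and *Tbx4* does not stand for its list. Of 9 mesenchymal genes 6 were higher and 3 lower in the mutants, among them *Fgf10* (10.4 and 26.6 FPKM) and *Foxf1* (83.5 and 41.6 FPKM). In whole-lung RNA, fewer cells of a type and less RNA per cell cannot be told apart.

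Promoters of the globins are shown first, because the pairs *Hba-a1* and *Hba-a2* and *Hbb-bt* and *Hbb-bs* are duplicates whose separate values are uncertain, and because the embryonic and later genes can be compared by eye. *Hbb-bt* and *Hbb-bs* are the adult beta globin genes that RefSeq places on this chromosome of the C57BL/6 genome. The locus that the table names *Hbb-b1*,*Hbb-b2* lies at *Hbb-bt*, and a locus named *Beta-s*, a synonym of *Hbb-bs*, lies at *Hbb-bs*. Sequences are from RefSeq on GRCm38.p6, 120 bases before to 20 after the annotated start, and 6 of the 7 are globins. Capitals mark the CACCC box, the CCAAT box, the GATA motif and the TATAA box, each searched on both strands, and a capital run may hold overlapping motifs.
Hba-x, chr11:32276480-32276619 (+ strand): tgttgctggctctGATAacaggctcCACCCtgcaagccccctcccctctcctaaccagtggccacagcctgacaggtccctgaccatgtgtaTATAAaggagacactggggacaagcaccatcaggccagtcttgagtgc
Hbb-y, chr7:103853188-103853327 (- strand): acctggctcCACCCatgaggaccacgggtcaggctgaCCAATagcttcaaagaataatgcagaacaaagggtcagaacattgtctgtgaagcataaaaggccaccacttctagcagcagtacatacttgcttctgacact
Hba-a1, chr11:32283552-32283691 (+ strand): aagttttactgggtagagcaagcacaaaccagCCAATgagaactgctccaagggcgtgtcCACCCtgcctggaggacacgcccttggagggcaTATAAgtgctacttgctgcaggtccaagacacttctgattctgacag
Hba-a2, chr11:32296372-32296511 (+ strand): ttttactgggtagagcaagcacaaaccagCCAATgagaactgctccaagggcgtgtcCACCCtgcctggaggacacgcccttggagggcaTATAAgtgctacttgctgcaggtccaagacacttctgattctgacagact
Hbb-bs, chr7:103827909-103828048 (- strand): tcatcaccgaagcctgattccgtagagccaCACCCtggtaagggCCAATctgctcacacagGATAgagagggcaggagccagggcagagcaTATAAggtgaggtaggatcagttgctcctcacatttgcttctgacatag
Hbb-bt, chr7:103813904-103814043 (- strand): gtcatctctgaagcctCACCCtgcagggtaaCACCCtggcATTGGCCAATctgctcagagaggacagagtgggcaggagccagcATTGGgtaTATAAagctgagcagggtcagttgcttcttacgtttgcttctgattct
Alas2, chrX:150547297-150547436 (+ strand): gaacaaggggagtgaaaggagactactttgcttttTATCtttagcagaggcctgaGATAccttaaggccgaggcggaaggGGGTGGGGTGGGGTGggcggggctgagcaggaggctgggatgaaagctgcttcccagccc

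CACCC stood in 7 of these 7 windows, against 35.1% of 32851 promoter windows of the same length, and CCAAT in 5 of 7, against 23.1%. TATAA was found in 5 of 7, against 13.0%, and GATA in 3 of 7, against 32.9%. In the window *Hbb-y* had no TATAA, *Hba-x* no CCAAT and *Alas2* neither, which says only that these letters are not there. The promoters of *Hba-a1* and *Hba-a2* matched in 297 of 303 aligned columns, and the other 6 columns were gaps, not substitutions. The printed *Hba-a2* window is the *Hba-a1* window shifted by 3 bases. These promoters are therefore not separate cases in these counts. A match describes the letters and is not a binding site. Promoters of *Slc4a1* and *Hbb-bh1* are named only.

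The duplicated later globins can hardly be separated by their coding parts, as a comparison of GENCODE coding sequences showed. *Hba-a1* and *Hba-a2* differed at 1 of 426 coding bases (C381T, counted from 1 at the first base of the start codon, *Hba-a1* base first), and *Hbb-bt* and *Hbb-bs* at 1 of 441 (T417C, *Hbb-bt* base first). The 41 bases around each difference are given with the differing base in capitals.
Hba-a1: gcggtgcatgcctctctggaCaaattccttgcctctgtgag
Hba-a2: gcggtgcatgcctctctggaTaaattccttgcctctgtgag
Hbb-bt: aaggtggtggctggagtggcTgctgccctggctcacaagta
Hbb-bs: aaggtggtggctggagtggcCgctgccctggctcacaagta

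By contrast, *Hba-x* shared 61.7% of its coding bases with *Hba-a1*. *Hbb-y* shared 76.4% with *Hbb-bh1* and 74.4% with *Hbb-bs*, and any alpha globin shared between 51.2% and 54.4% with any beta globin. The split of reads within each duplicated pair is uncertain, while the embryonic genes have no such close copy in this comparison. The sum over a pair depends less on that split, and is given beside the single values.

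*Hbb-y* had the highest FPKM of all erythroid loci listed, and all 3 embryonic globins were slightly higher in *Yap* mutant than in control lungs, between 1.04 and 1.08-fold. *Hbb-y*, the epsilon-type beta globin of primitive erythroid cells (chromosome 7, 103850922 to 103853207, minus strand, build mm10), had 4020.2 FPKM in controls and 4303 FPKM in mutants, a log2 ratio of 0.10. Among the 23126 loci with a symbol it ranked 3 in control and 2 in *Yap* mutant lungs by FPKM. Its locus in the table reaches 832 bases past the RefSeq gene on the downstream side. *Hba-x*, the zeta-type alpha globin (chromosome 11, 32276600 to 32278115, plus strand), had 529 FPKM in controls and 574 FPKM in mutants, a log2 ratio of 0.12. *Hbb-bh1*, the other embryonic beta globin (chromosome 7, 103841638 to 103843162), was much lower, at 85.3 FPKM in controls and 88.8 FPKM in mutants, a log2 ratio of 0.06. *Hbb-y* therefore stood 47.2 times above *Hbb-bh1* in control and 48.5 times above it in *Yap* mutant lungs, and it made up 97.9% and 98.0% of the embryonic beta globin FPKM. The summed embryonic globin value was 4635 FPKM in controls and 4966 FPKM in mutants, 1.07-fold higher.

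Later globins were present in both genotypes, and their ratios were less even than those of the embryonic genes. Both Hba-a loci encode the adult alpha chain, which primitive erythroid cells make too, so these loci do not mark definitive cells. The locus at *Hba-a1* (chromosome 11, 32283672 to 32284493) had 935 FPKM in controls and 982 FPKM in mutants, 1.05-fold. The locus at *Hba-a2* (chromosome 11, 32296489 to 32297310) had 231 FPKM in controls and 287 FPKM in mutants, 1.24-fold. Summed over the pair, the alpha value was 1166 FPKM in controls and 1269 FPKM in mutants, 1.09-fold higher, beside 1.08-fold for *Hba-x*.

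The adult beta globins had values in opposite directions. The member locus *Hbb-b1*,*Hbb-b2*, at *Hbb-bt* (chromosome 7, 103812524 to 103813923), had 109 FPKM in controls and 93.0 FPKM in mutants, a log2 ratio of -0.24, and was the only one of the 8 member loci with a lower value in the mutants. *Beta-s* (chromosome 7, 103826523 to 103827928), which is no member by symbol, had 288 FPKM in controls and 392 FPKM in mutants, a log2 ratio of 0.44. Since their coding parts differ at 1 base, the sum depends less on how reads were split between them. It was 397 FPKM in controls and 485 FPKM in mutants, 1.22-fold higher. The parts of their transcripts outside the coding sequence were not compared, so how far these loci can be told apart was not tested. Within the pair, the member locus took 27.5% in control and 19.2% in *Yap* mutant lungs. For the Hba-a pair, the locus at *Hba-a1* took 80.2% and 77.4%.

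**Figure D1:**
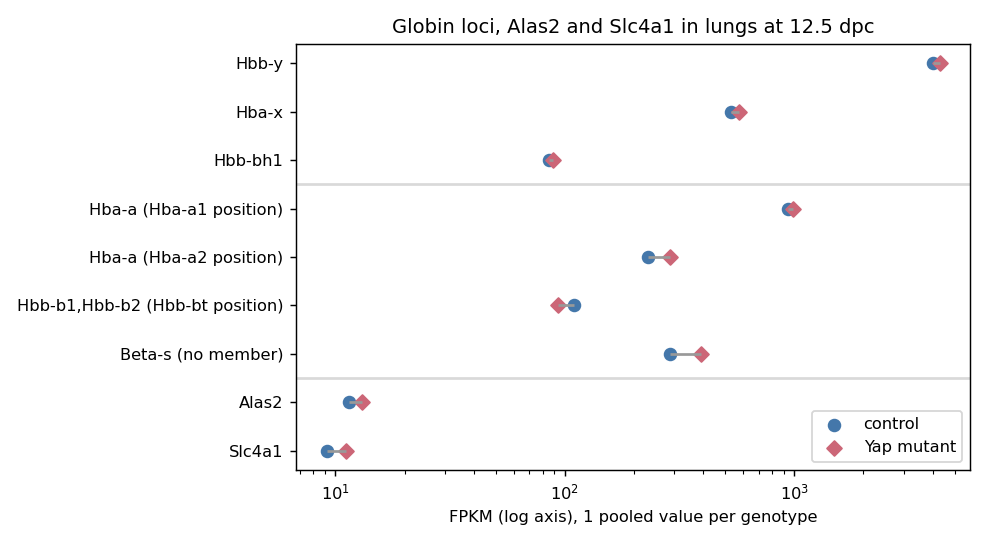
FPKM on a log axis of the globin loci, *Alas2* and *Slc4a1* in control (circles) and *Yap* mutant (diamonds) lungs, 1 pooled value per genotype, with embryonic globins on top and later globins in the middle. The symbols nearly coincide for the embryonic globins, and only *Hbb-b1*,*Hbb-b2* lies lower in *Yap* mutant lungs (93.0 against 109 FPKM).

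Summed over the member loci, embryonic and later globins stood in nearly the same proportion in both genotypes. Embryonic genes made up 78.4% of the FPKM of the 6 globin member loci in control and 78.5% in *Yap* mutant lungs. The Hba-a loci, which primitive cells express too, held 1166 of the 1275 FPKM of the later member sum in controls. The embryonic share therefore hardly registers the adult beta globins. With *Beta-s* counted among the later globins, the share was 74.8% in control and 73.9% in *Yap* mutant lungs, a difference of -0.88 percentage points, against 0.06 points without it, so the sign of this small difference turns with the choice of loci. Likewise the later sum was 1.07-fold higher in the mutants without *Beta-s* and 1.12-fold with it, beside 1.07-fold for the embryonic sum. In the alpha cluster, *Hba-x* took 31.2% in both genotypes. In the beta cluster, *Beta-s* included here and in the values that follow, the embryonic genes took 91.2% in control and 90.1% in *Yap* mutant lungs. The clusters differed in this respect in both genotypes, since the later alpha sum was 2.20 and 2.21 times the embryonic one, whereas the embryonic beta sum was 10.3 and 9.06 times the later one. Within the beta cluster, the later sum was 1.22-fold and the embryonic sum 1.07-fold higher in the mutants. Beta globins summed to 2.66 times the alpha globins in control and 2.65 times in *Yap* mutant lungs. All 7 globin loci together held 1.21% of the FPKM of loci with a symbol in control and 1.32% in *Yap* mutant lungs.

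**Figure D2:**
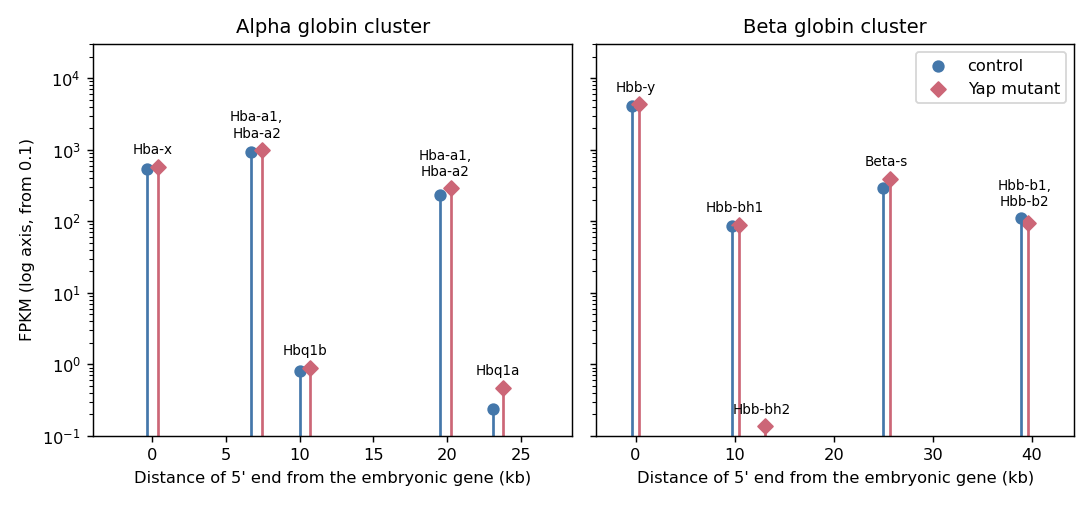
FPKM on a log axis of each globin locus in control (circles) and *Yap* mutant (diamonds) lungs, against the distance in kb of its 5' end from that of the embryonic gene that begins its cluster. In the alpha cluster the first Hba-a locus, at 7.07 kb, is the highest, in the beta cluster *Hbb-y*, and *Hbb-bh2* has no control symbol because it is listed at 0 there.

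Other globins were low or near 0. *Hbb-bh2*, a minor gene of the beta cluster, was listed at 0 in control and had 0.136 FPKM in *Yap* mutant lungs. The theta globin *Hbq1b* had 0.793 and 0.888 FPKM in control and *Yap* mutant lungs, and *Hbq1a* 0.239 and 0.473 FPKM. Cytoglobin (*Cygb*), which is made outside red cells, had 2.72 FPKM in controls and 3.13 FPKM in mutants. Myoglobin (*Mb*), the oxygen-binding protein of heart and skeletal muscle, had 0.248 and 0.627 FPKM, and neuroglobin (*Ngb*) 1.02 and 0.331 FPKM. *Cygb* was the only one of these 6 averaging at least 1 FPKM.

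Outside the globins, the remaining members had higher values in *Yap* mutant lungs too. *Alas2*, which encodes the erythroid form of the enzyme that starts heme synthesis (chromosome X, 150547417 to 150570622), had 11.4 FPKM in controls and 13.1 FPKM in mutants, 1.14-fold, a log2 ratio of 0.19. *Slc4a1*, which encodes band 3, the anion exchanger of the red cell membrane (chromosome 11, 102348820 to 102365281), had 9.16 FPKM in controls and 11.2 FPKM in mutants, 1.22-fold, a log2 ratio of 0.28. *Hbb-y* stood 352 times above *Alas2* in control and 329 times above it in *Yap* mutant lungs. In all, 7 of the 8 member loci were higher and 1 lower in *Yap* mutant lungs, beside 48.2% of all loci tested that were higher. None of the 8 (0) was at least 1.5-fold apart, beside 7.75% of all loci. All 8 averaged at least 5 FPKM, and at that level 44.7% of all loci were higher. There 2.27% were at least 1.5-fold higher and 1.91% lower, so 0 of 8 lies near these shares. The median log2 ratio of the members was 0.11, against -0.01 for all loci tested. By size, 83.2% of all loci averaging at least 1 FPKM had a smaller log2 ratio in absolute value than the locus at *Hba-a2*. That was the largest of the members, and 28.9% had a smaller one than *Hbb-bh1*, the smallest.

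*Alas2* lies on the X chromosome, and the genotypes also differed in genes of the sex chromosomes. *Xist* had 97.0 FPKM in controls and 50.4 FPKM in mutants. *Ddx3y* had 0.0163 and 10.2 FPKM, and *Eif2s3y* 0.0143 and 16.5 FPKM. *Kdm5d* and *Uty* had 4.61 and 5.11 FPKM in mutants, and both were listed at 0 for the controls. With Y-linked genes at or near 0 in controls and present in mutants, the mix of sexes differed between the genotypes. Sex and genotype therefore cannot be told apart in any comparison here. The median log2 ratio of 444 X-linked loci was 0.00, and the part of this difference in the value of *Alas2* or of any other locus was not tested. *Apex2*, a gene on the opposite strand that overlaps *Alas2* in RefSeq, had 11.1 FPKM in both genotypes at its own locus in the table.

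Heme synthesis, which supplies the prosthetic group of hemoglobin, was represented by 11 listed genes, all averaging at least 1 FPKM. Values were higher in *Yap* mutant lungs for 8 and lower for 3, with a median log2 ratio of 0.14, and none (0) was at least 1.5-fold apart. All 11 averaged at least 5 FPKM, where 2.27% of all loci were at least 1.5-fold higher and 1.91% lower. *Urod* (uroporphyrinogen decarboxylase) had 44.3 and 52.0 FPKM in control and *Yap* mutant lungs. *Fech*, whose product inserts iron into heme, had 16.0 and 18.0 FPKM. Except for *Alas2*, most of these genes are also used in other cells, so their values are not those of red cells alone.

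Genes of the red cell membrane and its skeleton were the erythroid list with the highest median, 0.34 on the log2 scale. Of 18 loci, 15 averaged at least 1 FPKM, of which 12 were higher and 3 lower in *Yap* mutant lungs, and 5 of the 15 were at least 1.5-fold higher, beside 4.44% of all loci. These 5 all averaged under 5 FPKM. *Rhd* (a Rhesus blood group protein) had 1.05 FPKM in controls and 2.28 FPKM in mutants. *Ank1* (erythroid ankyrin) had 0.948 FPKM in controls and 2.41 FPKM in mutants, and *Sptb* (erythroid beta spectrin) 0.926 and 1.67 FPKM. *Tmod1* (tropomodulin) had 0.476 FPKM in controls and 3.20 FPKM in mutants. *Tmod1* and *Ank1* are also used in heart muscle. The most abundant genes of the list, which many cells express, differed less, with 43.5 and 46.9 FPKM for *Epb4.1*, 21.6 and 21.4 FPKM for *Gypc*, and 10.6 and 14.6 FPKM for *Aqp1*, whose locus it shares with *Fam188b*.

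Among erythroid enzymes and genes of late red cell stages, 9 of 15 loci averaged at least 1 FPKM, of which 5 were higher and 4 lower in the mutants, with a median of 0.14. *Prdx2*, a peroxiredoxin abundant in red cells, was the highest, at 613 FPKM in controls and 578 FPKM in mutants, followed by *Bnip3l* at 54.1 and 59.7 FPKM and *Cat* at 38.1 and 42.9 FPKM. *Car2*, a carbonic anhydrase of red cells and of many epithelia, had 45.6 FPKM in controls and 27.7 FPKM in mutants. *Car2* was the only one of the 9 at least 1.5-fold lower and *Rhd*, which is on this list too, the only one at least 1.5-fold higher. Of all loci averaging at least 1 FPKM, 3.3% were at least 1.5-fold lower and 4.44% higher. *Car1*, the carbonic anhydrase of definitive red cells, was listed at 0 in control and had 0.0718 FPKM in *Yap* mutant lungs. It was named after its values were seen.

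Of 14 erythroid transcription factors, 11 averaged at least 1 FPKM, of which 6 were higher and 5 lower in the mutants, with a median of 0.10. *Ldb1*, *Lmo2* and *Bcl11a*, the most abundant, had 130.2, 24.0 and 13.6 FPKM in control and 140.8, 25.8 and 13.5 FPKM in *Yap* mutant lungs. In whole-lung RNA, how much of these values comes from red cells is unknown. *Zfpm1*, which encodes the GATA cofactor FOG1, had 6.15 and 9.78 FPKM. It was the only one of the 11 at least 1.5-fold apart, beside 7.75% of all loci averaging at least 1 FPKM. *Gata1*, the master regulator of erythroid genes, had 0.338 FPKM in controls and 0.688 FPKM in mutants, and *Klf1*, the factor that binds CACCC boxes of globin promoters, 0.551 and 0.999 FPKM. Both were named after their values were seen, and both averaged under 1 FPKM. At 0.3 to 1 FPKM, 19.7% of all loci were at least 1.5-fold higher. *Gfi1b*, the remaining factor averaging under 1 FPKM, had 0.380 and 0.416 FPKM. *Myb*, among the 5 lower factors, had 1.24 and 0.945 FPKM.

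Of 7 genes for erythroid receptors and iron uptake, 6 averaged at least 1 FPKM, of which 3 were higher and 3 lower in the mutants, with a median of 0.02. *Tfrc*, the transferrin receptor, had 39.2 and 37.3 FPKM in control and *Yap* mutant lungs, and *Slc11a2*, an iron importer, 13.1 and 10.6 FPKM. *Kit*, the receptor of early blood precursors and of other cells, had 8.35 and 14.1 FPKM, 1.69-fold. The iron exporter *Slc40a1* (ferroportin), which macrophages also make, had 9.21 FPKM in controls and 5.48 FPKM in mutants. It was the only one of the 6 at least 1.5-fold lower, beside 3.3% of all loci averaging at least 1 FPKM. *Kit* was the only one at least 1.5-fold higher, beside 4.44%.

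Across all erythroid lists, 58 of 71 loci averaged at least 1 FPKM. Of these, 39 were higher and 19 lower in the mutants, with a median log2 ratio of 0.11, beside 48.2% higher and a median of -0.01 over all loci. Many of these genes are also used in other cells, so the counts and the median are not those of red cells alone. At least 1.5-fold higher were 7 of the 58, beside 4.44% of all loci, and at least 1.5-fold lower were 2, beside 3.3%. At a 2-fold limit the counts were 4 higher, beside 2.15%, and 0 lower, beside 1.28%. Of the 7 higher loci, 5 lay below 5 FPKM. Without the globins, 20 erythroid loci had a mean of 1 to 5 FPKM, of which 15 were higher, beside 58.7% of all loci at that level, 5 at least 1.5-fold higher, beside 11.0%, and 0 at least 1.5-fold lower, beside 7.5%. A mean of at least 5 FPKM was reached by 31 loci, of which 18 were higher, beside 44.7%, 2 at least 1.5-fold higher, beside 2.27%, and 2 at least 1.5-fold lower, beside 1.91%. A further 7 loci lay between 0.3 and 1 FPKM, and all 7 were higher, 3 of them at least 1.5-fold, beside 58.0% and 19.7% of all loci at that level. These bands of level were chosen after the values were seen.

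**Figure D3:**
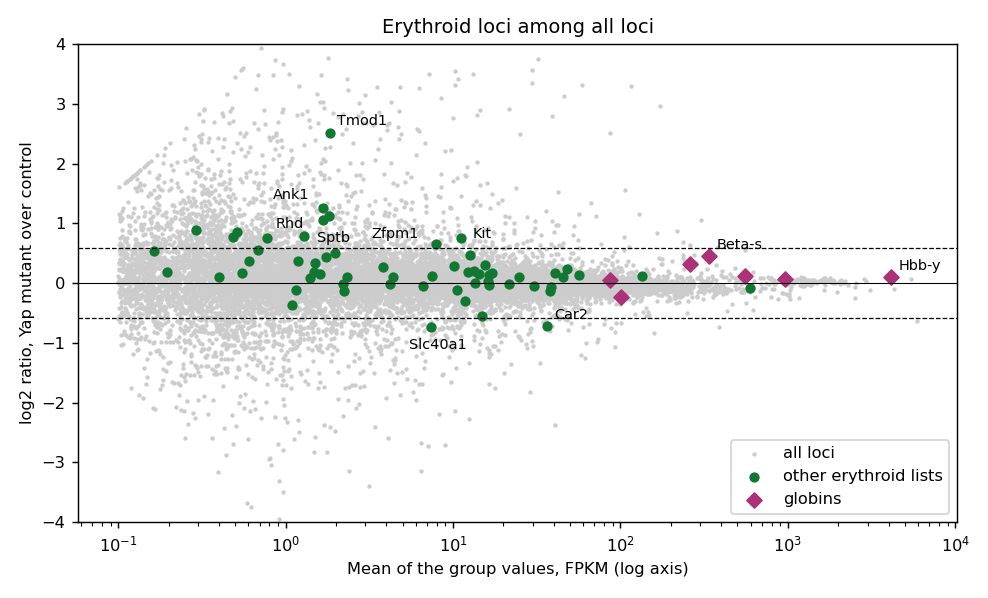
Log2 ratio of *Yap* mutant over control against the mean FPKM of the genotypes (log axis) for 16515 of 16546 loci averaging at least 0.1 FPKM (grey; 31 lie outside the plotted range), with globins as diamonds and other erythroid loci as green points. Dashed lines mark 1.5-fold, and the globins all lie between them, while *Tmod1*, *Ank1*, *Rhd* and *Sptb* lie above at a mean of 1 to 2 FPKM.

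Markers of other tissues also differed between the genotypes. Of 11 cardiac muscle genes, 9 averaged at least 1 FPKM. All 9 were at least 1.5-fold higher in the mutants, beside 4.44% of all loci at that level. Their median was 2.96 on the log2 scale, and all 11 summed to 100.3 FPKM in controls and 678 FPKM in mutants. None (0) of the cardiac genes was listed at 0. With *Tmod1* and *Ank1* left out, 5 erythroid loci were at least 1.5-fold higher and the median was 0.11. This alternative was chosen after the values were seen, and leaving out so few loci can hardly move a median. Of the 12 genes of liver and yolk sac, 5 averaged at least 1 FPKM, of which 4 were at least 1.5-fold higher in the mutants. Of all loci averaging at least 1 FPKM, 4.44% were at least 1.5-fold higher. Over all 12, 8 were higher and 4 lower by any amount. Beside this, 48.2% of all loci averaging at least 1 FPKM were higher, and 58.0% at 0.3 to 1 FPKM. None (0) of the 12 was listed at 0, with sums of 14.6 and 60.9 FPKM over the list. The 4 higher loci were *Afp* (5.42 and 22.3 FPKM), *Trf* (4.92 and 19.2 FPKM), *Ttr* (0.492 and 13.5 FPKM) and *Apoa1* (1.27 and 3.65 FPKM), and the fifth was *Alb* (1.28 and 1.14 FPKM). The part of heart, liver or yolk sac in the erythroid values was not tested.

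Genes of the endothelium, which lines the vessels that hold the blood, had a median log2 ratio of 0.14 over 15 loci, 10 higher and 5 lower. None (0) was at least 1.5-fold apart, beside 7.75% of all loci averaging at least 1 FPKM. The endothelial sum was 414 FPKM in controls and 434 FPKM in mutants, 1.05-fold, beside 1.07-fold for the embryonic globins.

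**Figure D4:**
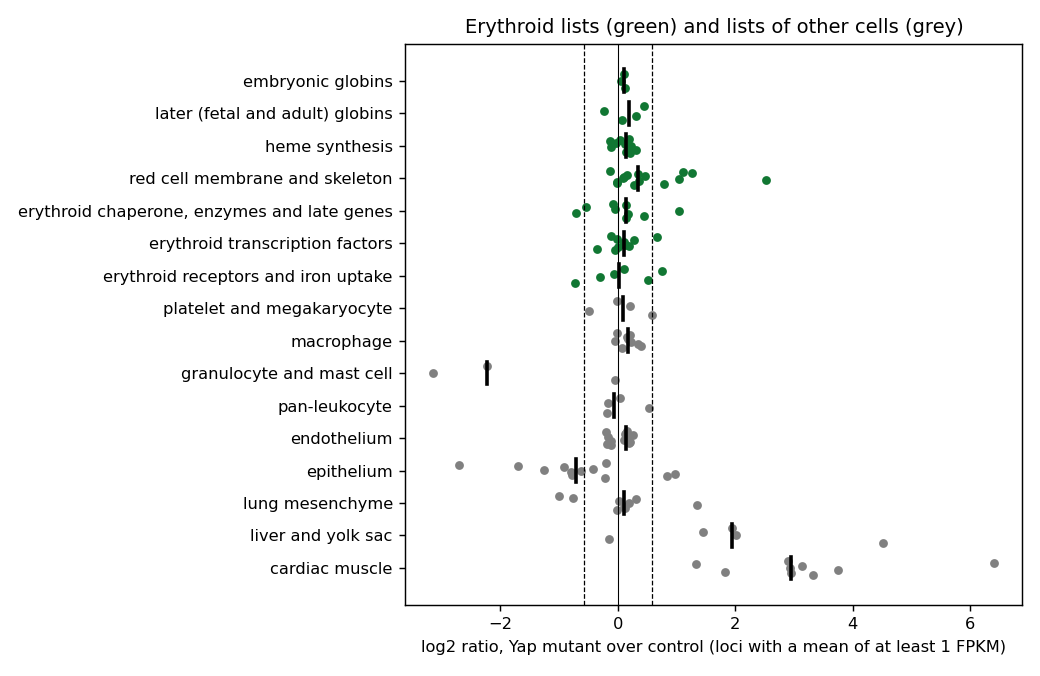
Log2 ratio of *Yap* mutant over control for each locus averaging at least 1 FPKM, by list, with the median of a list as a black bar and 1.5-fold as dashed lines. Medians of the erythroid lists (green) lie between 0.02 and 0.34, and those of cardiac muscle and of liver and yolk sac at 2.96 and 1.94.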

How the data were processed

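Whole-lung RNA of 6 libraries was sequenced, 3 for each genotype. The submitters' processing notes name TopHat, Cuffdiff and mm10, and their versions and the annotation are not given in sources used here. The authors deposited 2 tables with 1 value per genotype, pooled over the libraries and read here as FPKM from the Cuffdiff layout, which does not name the unit. They also hold the authors' fold changes and p-values, which were not used. One table covers all loci and the other the 2395 loci the authors list as changed, and for 25 of those the values differ by over 1% between the tables (none, 0, erythroid). No column belonged to other samples (0).

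Log2 ratios were computed after adding 0.1 FPKM, over loci averaging at least 1 FPKM. With 1 value per genotype there was no test. The ratio step was tested on simulated data. Starts in the tables count from 0 (9308 loci start 1 below the RefSeq gene of that symbol and 617 at it), so 1 was added. Members and lists were chosen with earlier results of these data known. Missing symbols were matched through RefSeq synonyms, and 3 list symbols found no locus. Named are all members and globins, and of each further list the 3 loci of highest mean and up to 5 at least 1.5-fold apart. For lists of other cells fewer are named. Some genes that this rule would name are not reported here. Alternatives were other pseudocounts (none, 1 FPKM), minimums (none, 5 FPKM), a 2-fold limit, the values of the changed-loci table, centring on the overall median and leaving out loci with several symbols. Python 3.11.15, pandas 2.3.3, numpy 2.4.6, Biopython 1.88 and matplotlib 3.10.9 were used. Coding sequences came from GENCODE M21 and were aligned globally.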

Additional observations from a re-analysis of the deposited data

How the results depend on the processing

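Of 68 values recomputed under an alternative, 62 moved only within set limits. These were less than 0.1 on the log2 scale, less than 1 percentage point or, for counts, at most 1.5 times. No log2 ratio of a member locus, of a sum or of the list median changed sign. Some alternatives could hardly move a value. The values of erythroid loci did not differ in the changed-loci table, so using it returned the same results. Centring shifted log2 ratios only by the overall median of -0.006. No embryonic globin locus has several symbols, so leaving such loci out could not change their sum. The count of 62 is therefore no measure of how stable the results are. With *Beta-s* added, an alternative chosen after the values were seen, the embryonic share of globin FPKM was 74.8% in control and 73.9% in *Yap* mutant lungs, against 78.4% and 78.5% without it, so that the difference between the genotypes turned from 0.06 to -0.88 percentage points, and the log2 ratio of the later sum went from 0.09 to 0.17, on either side of 0.10 for the embryonic sum. The count of erythroid loci at least 1.5-fold higher in *Yap* mutant lungs was 7, and it became 12 with no minimum, 2 at a minimum of 5 FPKM and 4 at a 2-fold limit. The count of lower loci was 2 and became 0 at a 2-fold limit. With loci of several symbols left out, no later globin locus among the members was left, so their sum and the share had no value. No paired analysis was possible because the tables hold 1 value per genotype and no values per replicate, and for the same reason no replicate could be left out. The depth is unknown, so the precision of a value is unknown too.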

Other observations

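Other blood cells were described by lists of their marker genes. Platelet and megakaryocyte genes had 4 of 10 loci averaging at least 1 FPKM, 2 higher and 2 lower in the mutants, with a median log2 ratio of 0.09. *Pf4*, a chemokine of platelets, had 17.1 FPKM in controls and 16.9 FPKM in mutants. Macrophage genes had 9 of 10 loci at that level, 7 higher and 2 lower, with a median of 0.18. None (0) of the 9 was at least 1.5-fold apart, beside 7.75% of all loci. *C1qb*, a complement gene of macrophages, had 12.0 and 13.6 FPKM. Of 5 pan-leukocyte genes, 4 averaged at least 1 FPKM, 2 higher and 2 lower, with a median of -0.07, and *Coro1a* had 8.49 and 8.74 FPKM.

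Granulocyte and mast cell genes summed to 12.4 FPKM in controls and 3.42 FPKM in mutants, and 3 of 8 loci averaged at least 1 FPKM, all 3 with a lower value in the mutants. Of all loci at that level, 48.2% were higher. *S100a8* and *S100a9*, calcium-binding proteins of neutrophils, had 4.38 and 3.67 FPKM in controls and 0.408 and 0.709 FPKM in mutants. The neutrophil protease gene *Prtn3* had 1.54 and 1.48 FPKM, and *Elane* was listed at 0 in both genotypes. *Cpa3*, a mast cell protease, had 1.43 and 0.426 FPKM.

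Of the lung's own lists, epithelial genes had 12 loci, 10 lower and 2 higher in the mutants, with a median of -0.71, and mesenchymal genes 9 loci, 6 higher and 3 lower, with a median of 0.11.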
